A study of Mus musculus with 12 samples.

Results

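The chemokine ligands described here are 10 genes that macrophages are known to make, Cxcl2, Cxcl10, Cxcl14, Cxcl16, Ccl2, Ccl3, Ccl4, Ccl6, Ccl7 and Ccl9. They were picked by gene symbol, with earlier results of these data known, and are 10 of 30464 genes with a name on the array. Each has 1 probe set, so no choice between probe sets was needed. Signals are RMA values on the log2 scale, so a difference of 1 is a doubling. A gene was tested where its signal lay above the array's median over all probe sets on at least 3 arrays. That left 18119 genes, among them 8 of the 10 ligands, each above the median on all 12 arrays. Ccl7 and Cxcl10 were above it on 0 of 12 arrays and were not tested.

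The measured cells were RAW264.7, a mouse macrophage-like line, kept for 24 h in 1 of 4 media, with 3 arrays each. The first group had normal medium (replicates 2, 3 and 4). The second, called SCR medium (replicates 1, 3 and 4), had medium in which SCR PyMT-41C cells had grown. The third, called KO medium (replicates 1, 2 and 3), had medium from JMJD6-KO PyMT-41C cells. The fourth had SCR medium to which CSH was added (SCR medium with CSH, replicates 1, 2 and 4). CSH is described in the labels as a blocker of the receptor of annexin A1 (ANXA-1). Conditioned medium was used at 50%, mixed with RPMI that held 10% FBS. The growth protocol in the labels describes conditioned media only, and the normal medium group is known from title and description. The knocked-out cells were not the measured ones, so the Jmjd6 signal is no check on the groups. CSH was not paired with normal medium in any labelled group, and no vehicle control is named. Replicates are not said to be separate cultures, and the p-values then measure only how these samples spread, which may be technical.

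Chemokines are small secreted proteins that draw leukocytes along a gradient by binding G protein-coupled receptors on their surface. CXC ligands such as Cxcl2 act mainly on neutrophils or lymphocytes, and CC ligands such as Ccl2, Ccl3 and Ccl4 act mainly on monocytes, macrophages and T cells. Macrophages are a major source of both, and many of the genes lie side by side in clusters and are switched on by NF-kB, AP-1 or interferon signalling.

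The arrays were on a common scale. Array medians ran from 5.40 to 5.52, 0 pairs of arrays were identical, and the median residual SD over genes was 0.0964. All 7 macrophage markers with a name on the array were above the median. The log2 of their summed signal ran from 18.57 to 18.75 over all arrays. Lyz2 and Cd68, with group means from 16.96 to 17.83, made up most of that sum, so it says little about the other markers. Of 7, 2 rose and 3 fell from normal to SCR medium (adjusted p below 0.05, limma), beside 19.3% and 15.8% of all genes tested. Csf1r, the receptor of the macrophage growth factor, read 13.70 ± 0.12 in normal and 11.90 ± 0.10 in SCR medium (SD, n = 3). Means of Adgre1 went down from 11.24 to 9.79 and those of Cd68 from 17.19 to 17.04. Means of Fcgr1 went up from 10.90 to 13.47 and those of Itgam from 14.03 to 15.00. For markers of epithelial cells the log2 of the summed signal was 8.03 to 8.13 in all groups, and 2 of 8 were above the median. Fibroblast markers (0 of 2), B cell markers (0 of 2) and T cell markers (1 of 4) were mostly below it. The log2 of the summed neutrophil marker signal ran from 7.87 to 8.04 in normal medium and from 8.43 to 8.55 in SCR medium. It ran from 8.40 to 8.88 with CSH and from 8.89 to 9.15 in KO medium. Of the 5, 3 were above the median, and 1 of the 3 was called. S100a8, which myeloid cells of several kinds make, rose from 5.06 ± 0.26 in normal to 7.28 ± 0.16 in SCR medium (adjusted p = 4.09e-06) and read 8.30 ± 0.21 in KO medium. S100a9 read 6.65 in normal and 6.61 in SCR medium (adjusted p = 0.808) and Ly6g 5.89 and 5.79 (0.582), while Mpo and Elane, the defining granule genes, stayed below the median with group means of 4.59 to 4.81. The part of these markers in the results on chemokine ligands was not tested.

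The sequences in front of 4 of the genes are shown because 1 carried the largest change, 2 are neighbours of which 1 rose in SCR medium, and 1 stayed below the median. Windows run from 250 bases before to 50 after the start of the RefSeq gene, except that of Cxcl14. The assembly is GRCm38.p6, the same as mm10, and 6 of the 10 ligands matched an entry. The 4 windows shown lie at chr5:90903649-90903948 (plus strand) for Cxcl2, chr5:92348840-92349139 (minus) for Cxcl10, chr11:83578587-83578886 (minus) for Ccl9 and chr11:83593038-83593337 (minus) for Ccl6. Capitals mark matches, on either strand, to the motifs searched.
Cxcl2: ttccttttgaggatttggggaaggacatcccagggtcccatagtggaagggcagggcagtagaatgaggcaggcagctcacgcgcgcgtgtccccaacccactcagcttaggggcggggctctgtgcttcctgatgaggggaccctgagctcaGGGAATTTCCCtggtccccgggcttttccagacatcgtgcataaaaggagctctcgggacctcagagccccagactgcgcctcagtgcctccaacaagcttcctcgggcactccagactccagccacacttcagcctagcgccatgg
Cxcl10: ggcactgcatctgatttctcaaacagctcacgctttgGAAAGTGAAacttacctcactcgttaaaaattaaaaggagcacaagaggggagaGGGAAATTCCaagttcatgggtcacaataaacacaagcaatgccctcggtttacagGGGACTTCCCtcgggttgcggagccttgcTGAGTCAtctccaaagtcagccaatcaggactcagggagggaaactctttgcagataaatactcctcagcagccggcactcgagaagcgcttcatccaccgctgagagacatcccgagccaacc
Ccl9: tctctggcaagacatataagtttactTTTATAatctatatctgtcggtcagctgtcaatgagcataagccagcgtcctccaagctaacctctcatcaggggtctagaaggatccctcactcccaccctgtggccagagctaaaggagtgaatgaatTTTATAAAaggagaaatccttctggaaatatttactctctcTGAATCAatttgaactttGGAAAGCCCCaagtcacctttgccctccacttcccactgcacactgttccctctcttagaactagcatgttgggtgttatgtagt
Ccl6: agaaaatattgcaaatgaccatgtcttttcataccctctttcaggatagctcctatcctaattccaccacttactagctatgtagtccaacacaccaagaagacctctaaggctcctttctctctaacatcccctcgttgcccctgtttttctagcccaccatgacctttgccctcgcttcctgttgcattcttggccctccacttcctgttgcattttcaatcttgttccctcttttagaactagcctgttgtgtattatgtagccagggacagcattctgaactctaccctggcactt

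The motifs searched were the NF-kB consensus, AP-1 (TGANTCA), the cAMP response element (TGACGTCA), an interferon response element (GAAANNGAA), C/EBP (TTGCNNAA) and the TATA box (TATAAA). Cxcl2 held the NF-kB consensus on both strands, overlapping, from base -97, counted from the gene's start. Cxcl10 held it at -159 and -103, beside AP-1 at -74 and an interferon response match at -213. Ccl9 held the NF-kB consensus at -35 on the reverse strand, AP-1 at -53 and TATA boxes at -224, -94 and -92, the latter pair overlapping on opposite strands. Ccl6 held 0 of the motifs, and Ccl3 held an interferon response match at -39. Cxcl14 held such a match at -172, counted from a start inside its RefSeq gene. The whole Cxcl14 window, 56296502 to 56296801 on chromosome 13, lies inside that gene. Over all 32851 windows of this length, 4.51% held the NF-kB consensus, 7.81% AP-1, 1.79% the cAMP response element, 8.56% the interferon response element, 10.8% C/EBP and 13.6% the TATA box. The windows of Ccl6 and Ccl9 shared a stretch of 74 aligned columns of which 59 (79.7%) were identical. A match is a description of letters and not a bound site.

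In SCR medium, 4 of the 8 tested ligands rose against normal medium and 2 fell. The comparison asks what medium conditioned by SCR PyMT-41C cells, taken as a whole, does to RAW264.7 cells. Cxcl2, Cxcl14, Ccl6 and Ccl2 rose, Cxcl16 and Ccl4 fell, and Ccl3 and Ccl9 did not pass the test. Over all 18119 genes tested, 19.3% were called higher and 15.8% lower, at adjusted p below 0.05 in limma. The median change of the 8 ligands was 0.32, beside 0.02 over all genes. In such bulk samples fewer cells of a type and less RNA per cell cannot be told apart.

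Cxcl2, the main neutrophil attractant of mouse macrophages, lies on chromosome 5 (GRCm38.p6, 90903899 to 90905938). Its signals were 8.36, 8.80 and 8.20 in normal medium, 11.19, 11.22 and 11.37 in SCR medium, 11.11, 11.25 and 11.19 with CSH, and 12.18, 12.29 and 13.14 in KO medium. All 9 arrays with conditioned medium were above all 3 with normal medium, and KO replicate 3 stood highest. From normal to SCR medium the mean went from 8.45 ± 0.31 to 11.26 ± 0.10 (SD, n = 3), a log2 change of 2.81 (SE 0.21, adjusted p = 6.5e-07) or 7.0-fold. That was the 8th largest rise of all genes tested. Its window, printed above, holds the overlapping NF-kB matches, and those of Cxcl10 and Ccl9 hold such matches too.

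Cxcl14 encodes a chemokine known from epithelia that attracts monocytes and dendritic cells (chromosome 13, 56288643 to 56296811). It read 6.55, 6.78 and 6.56 in normal medium, 8.53, 8.41 and 8.62 in SCR medium, 8.30, 8.54 and 8.22 with CSH, and 8.91, 8.97 and 9.03 in KO medium. Normal and conditioned media did not overlap, and the 3 KO arrays were the highest. The rise from 6.63 ± 0.13 to 8.52 ± 0.11 in SCR medium was 1.89 (SE 0.09, adjusted p = 2.64e-08), or 3.71-fold.

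Ccl6, a CC chemokine of rodents that acts on Ccr1, lies on chromosome 11 (83587886 to 83593087). Its signals were 7.58, 7.42 and 7.54 in normal medium, 9.01, 9.52 and 9.42 in SCR medium, 9.77, 10.29 and 9.22 with CSH, and 9.88, 10.49 and 9.81 in KO medium. Every conditioned array exceeded every normal one, while the 3 CSH arrays spread over the ranges of the other conditioned media. The change from 7.51 ± 0.08 to 9.32 ± 0.27 was 1.80 (SE 0.24, adjusted p = 6.61e-05), or 3.49-fold.

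Ccl2, the monocyte attractant that acts through Ccr2, lies on the same chromosome (82035577 to 82037452). It read 7.16, 6.77 and 7.09 in normal medium, 7.48, 7.75 and 7.77 in SCR medium, 7.59, 7.70 and 7.40 with CSH, and 8.25, 8.19 and 8.70 in KO medium. The normal arrays were lowest and the KO arrays highest, and the SCR and CSH arrays overlapped. Its rise in SCR medium, from 7.01 ± 0.21 to 7.67 ± 0.16, was the smallest of the 4, at 0.66 (SE 0.14, adjusted p = 0.00267) or 1.58-fold.

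Cxcl16, made as a transmembrane protein that also takes up oxidised lipid and is released by proteases, moved the other way (chromosome 11, 70454389 to 70459984). It read 10.60, 10.48 and 10.36 in normal medium, 8.88, 8.81 and 8.92 in SCR medium, 8.90, 9.34 and 8.77 with CSH, and 8.60, 8.71 and 8.75 in KO medium. Here all conditioned arrays lay more than a full log2 unit below the normal ones. The mean fell from 10.48 ± 0.12 to 8.87 ± 0.06, a change of -1.61 (SE 0.12, adjusted p = 6.35e-07), to 0.328 of the level in normal medium.

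Ccl3 and Ccl4, a pair of closely related macrophage inflammatory proteins, are neighbours on chromosome 11 (83647843 to 83649378 and 83648624 to 83664683), and their RefSeq gene models overlap by 755 bases. Ccl4 signals were 7.94, 8.08 and 7.78 in normal medium, 7.58, 7.66 and 7.60 in SCR medium, 7.79, 7.99 and 7.60 with CSH, and 7.79, 7.92 and 7.82 in KO medium. The SCR arrays were all below the normal ones. The fall from 7.93 ± 0.15 to 7.61 ± 0.04 was -0.32 (SE 0.10, adjusted p = 0.0189). That call was lost without normal replicate 2 (adjusted p = 0.0507) or 3 (0.0819), or SCR replicate 1 (0.0578) or 4 (0.0529). Ccl3 read 13.39, 13.54 and 13.11 in normal and 12.92, 13.24 and 13.34 in SCR medium, which overlapped, and its change was -0.18 (95% interval -0.47 to 0.11, adjusted p = 0.355).

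Ccl9, like Ccl6 a rodent ligand of Ccr1, lies 9.25 kb from it (chromosome 11, 83572917 to 83578636). It read 10.73, 10.86 and 10.66 in normal medium, 10.50, 10.87 and 10.82 in SCR medium, 10.91, 11.48 and 10.61 with CSH, and 11.39, 11.49 and 11.42 in KO medium. The normal and SCR arrays covered the same range. The change was -0.02 (SE 0.17, 95% interval -0.39 to 0.35, adjusted p = 0.947), beside the 1.80 of its neighbour Ccl6, with which it shares the promoter stretch given above. That difference between both genes was not tested.

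**Figure D1:**
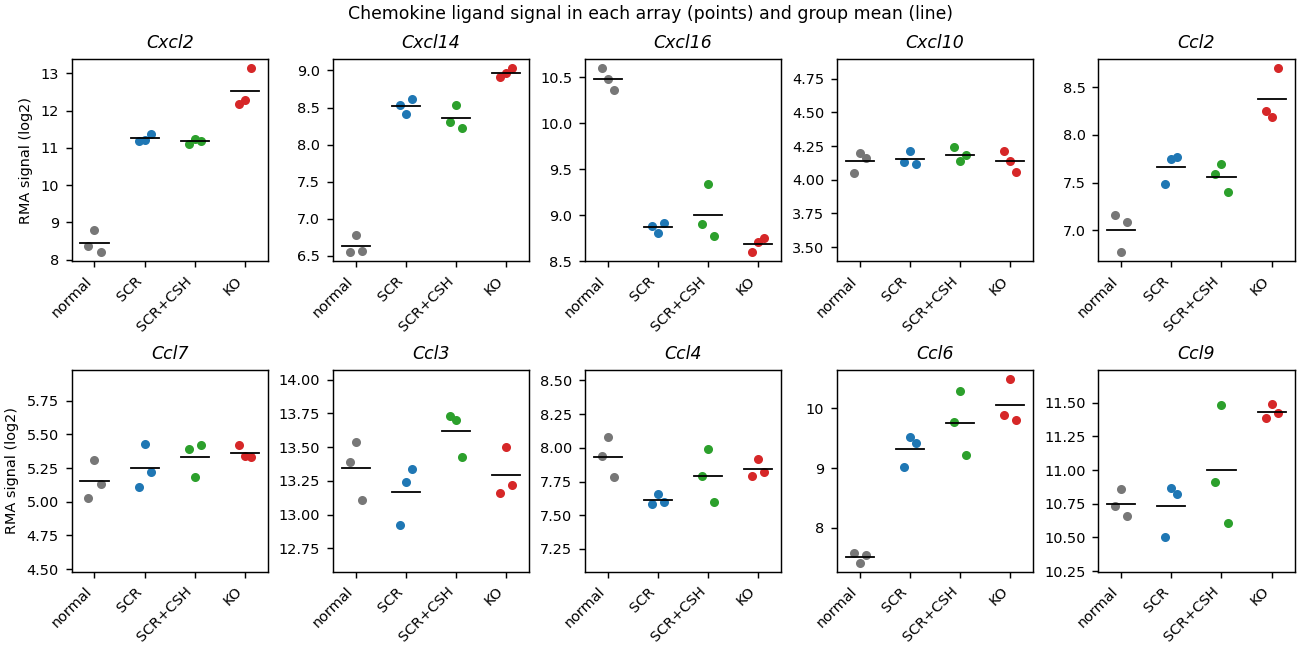
Signal of each of the 10 ligands (y axis, RMA signal, log2; each panel has its own range) in the 3 arrays of each medium (points) with the group mean (line). Cxcl2, Cxcl14, Ccl6 and Ccl2 sit lowest in normal medium and Cxcl16 highest. Cxcl10, near 4.14 to 4.19, is level, and Ccl7 has means from 5.16 in normal to 5.36 in KO medium. Both are below the array medians.

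Ccl7, a monocyte attractant 8.26 kb from Ccl2 (82045712 to 82047525), had group means of 5.16 ± 0.14, 5.25 ± 0.16, 5.33 ± 0.13 and 5.36 ± 0.05 in normal medium, SCR medium, SCR medium with CSH and KO medium. Cxcl10, the interferon-induced ligand of Cxcr3 on T cells (chromosome 5, 92346638 to 92348889), had 4.14 ± 0.08, 4.15 ± 0.05, 4.19 ± 0.05 and 4.14 ± 0.08 in the same order. Array ranges of Cxcl10 overlapped in all 4 groups, at 4.05 to 4.24. Those of Ccl7 ran from 5.03 to 5.43, and its KO arrays (5.33 to 5.42) all lay above its normal ones (5.03 to 5.31). With no filter on low signals, limma gave changes of 0.10 (adjusted p = 0.608) for Ccl7 and 0.02 (adjusted p = 0.913) for Cxcl10 from normal to SCR medium. From normal to KO medium Ccl7 changed by 0.21 in that fit (adjusted p = 0.164). At signals this low a difference may not be detectable.

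The next comparison, of KO with SCR medium, concerns the effect of losing JMJD6 in the conditioning cells. Of the 8 tested ligands, 1 rose, Cxcl2, and 0 fell, where 0.254% of all genes tested were called higher and 0.0166% lower. Cxcl2 went from 11.26 ± 0.10 to 12.54 ± 0.53, a change of 1.28 (SE 0.21, adjusted p = 0.0247), the 4th largest rise of all genes tested. All 3 KO arrays were above all 3 SCR arrays, and without KO replicate 3, the highest, the change was 0.98 with an adjusted p of 0.0203. The call was lost without SCR replicate 1 (adjusted p = 0.116), 3 (0.127) or 4 (0.0685), with no filter on low signals (0.0539), with all probe sets tested one by one (0.0606) and with the 6 arrays of the comparison alone (0.0826).

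The other ligands did not pass, though several lay apart. Arrays did not overlap for 7 of 8, with 6 higher and 1 lower in KO medium, beside 5.0% and 4.37% of all genes tested. Ccl2 differed by 0.71 (95% interval 0.41 to 1.02, adjusted p = 0.0813), from 7.67 ± 0.16 to 8.38 ± 0.28. Cxcl14 differed by 0.45 (0.25 to 0.65, adjusted p = 0.0887), and it was called without CSH replicate 2, which enters through the shared spread (adjusted p = 0.0395). For the pair of Ccr1 ligands the differences were alike in size. Ccl9 differed by 0.70 (0.34 to 1.07, adjusted p = 0.192), and was called without CSH replicate 2 (0.0171), and Ccl6 by 0.74 (0.23 to 1.26, adjusted p = 0.491). With arrays weighted by their spread, Ccl2 (adjusted p = 0.0203), Cxcl14 (0.0244) and Ccl9 (0.0278) were called too. In that fit SCR replicate 4 had a weight of 6.14, beside 0.534 and 0.393 for the other SCR arrays.

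The remaining differences were small. Ccl4 differed by 0.23 (0.02 to 0.44, adjusted p = 0.755) and Ccl3 by 0.13 (-0.17 to 0.42, adjusted p = 0.995). Cxcl16, the lower one, differed by -0.18 (-0.44 to 0.08, adjusted p = 0.983). The median over the 8 ligands was 0.58, and over all genes tested it was -0.0033.

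SCR medium with and without CSH asks whether blocking the annexin A1 receptor changes the response. No ligand was called in limma, with 1 of 8 at an unadjusted p below 0.05, and 0.0% of all genes tested were called, with 1131 at an unadjusted p below 0.05 and a smallest adjusted p of 0.0607. Ccl3 was the 1 ligand whose arrays did not overlap, higher with CSH, beside 5.51% of all genes higher and 3.09% lower in this way. Its signals were 13.73, 13.70 and 13.43 with CSH against 12.92, 13.24 and 13.34, and 13.16, 13.50 and 13.22 in KO medium. The difference was 0.45 (95% interval 0.16 to 0.75), with an unadjusted p of 0.00562 and an adjusted p of 0.666.

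For the other ligands the interval of the difference held 0. Cxcl2 differed by -0.08 (95% interval -0.53 to 0.38), Cxcl14 by -0.17 (-0.36 to 0.03) and Ccl2 by -0.10 (-0.41 to 0.20). Ccl6 differed by 0.44 (-0.07 to 0.96), Ccl9 by 0.27 (-0.10 to 0.64), Ccl4 by 0.18 (-0.03 to 0.39) and Cxcl16 by 0.13 (-0.13 to 0.39). Adjusted p-values of these 7 ran from 0.856 to 0.983, which does not show that the media act alike. CSH replicate 2 read highest of its group for Ccl6, Ccl9, Ccl4 and Cxcl16, at 10.29, 11.48, 7.99 and 9.34. The median over the ligands was 0.16, beside 0.01 over all genes tested.

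**Figure D2:**
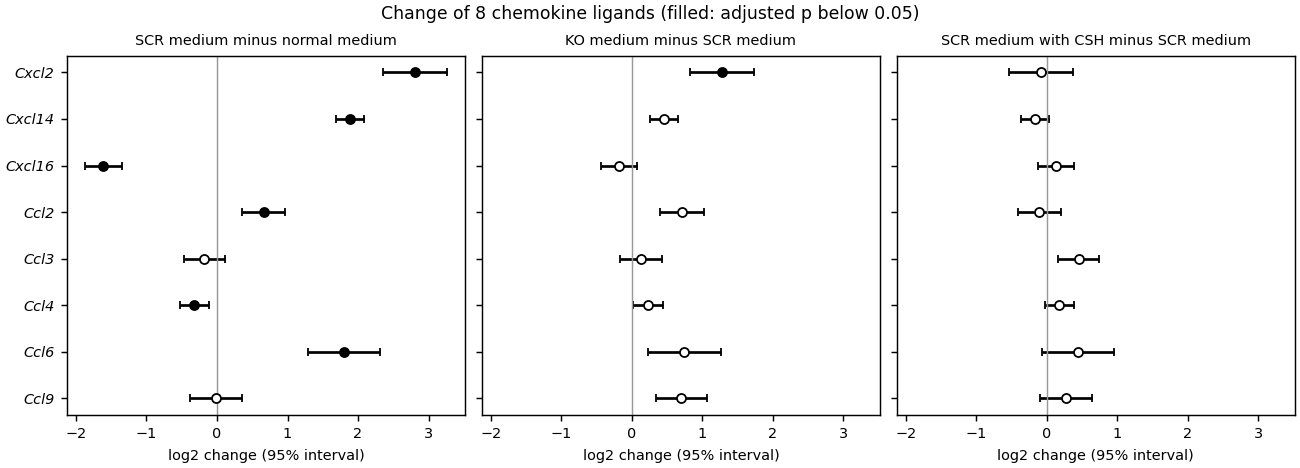
Log2 change of the 8 tested ligands (x axis, same scale in each panel) with its 95% interval in SCR medium against normal medium, KO medium against SCR medium, and SCR medium with CSH against SCR medium. Filled points have an adjusted p below 0.05 in limma: 6 in the first panel, 1 in the second (Cxcl2, 1.28) and 0 in the third.

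The SCR arrays, on which both preceding comparisons rest, are not part of the difference between KO medium and SCR medium with CSH. They still enter its p-values through the shared spread. That comparison tests whether the KO and CSH differences from SCR medium are unequal. Of the 8 ligands, 3 were higher in KO medium and 0 lower, where 1.21% of all genes tested were called higher and 0.695% lower. Cxcl2 was higher by 1.35 (SE 0.21, adjusted p = 0.00735), Cxcl14 by 0.62 (SE 0.09, adjusted p = 0.00579) and Ccl2 by 0.82 (SE 0.14, adjusted p = 0.0137), each in 3 of 3 arrays. With the replicate number as a fixed block in limma, Ccl2 was not called (0.80, adjusted p = 0.0542). For these 3 genes the levels thus ordered as KO medium, then SCR medium and SCR medium with CSH, which did not differ beyond their spread, then normal medium, although KO against SCR medium passed for Cxcl2 alone.

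The other 5 did not pass, at 0.43 for Ccl9 (adjusted p = 0.241), 0.30 for Ccl6 (0.583), 0.05 for Ccl4 (0.848), -0.32 for Cxcl16 (0.222) and -0.33 for Ccl3 (0.268). Without CSH replicate 2, Ccl9 was called at 0.67 (adjusted p = 0.0279). Of all genes called in this comparison 219 of 345 were higher, and 120 of 154 after median centring of the arrays.

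Against normal medium, 5 ligands were higher in KO medium and 1 was lower, beside 21.4% and 17.6% of all genes tested. Cxcl2 was higher by 4.08 (SE 0.21, adjusted p = 2.22e-08), or 17.0-fold, the 5th largest rise. Ccl6 was higher by 2.55 (adjusted p = 2.71e-06), Cxcl14 by 2.34 (2.92e-09), Ccl2 by 1.37 (6.4e-06) and Ccl9 by 0.68 (0.00578), and Cxcl16 was lower at -1.79 (1.6e-07). Ccl9 is the one of these that SCR medium left at 10.73 ± 0.20 beside 10.75 ± 0.10 in normal medium, against 11.43 ± 0.05 in KO medium. Ccl4 (-0.09, adjusted p = 0.515) and Ccl3 (-0.05, adjusted p = 0.803) did not pass.

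SCR medium with CSH against normal medium had 4 ligands higher and 1 lower, beside 20.9% and 14.9% of all genes tested. The changes were 2.73 for Cxcl2 (adjusted p = 9.15e-07), 2.25 for Ccl6 (1.21e-05), 1.72 for Cxcl14 (6.21e-08), 0.56 for Ccl2 (0.00788) and -1.48 for Cxcl16 (1.44e-06). Ccl3 (0.27, adjusted p = 0.145), Ccl9 (0.25, 0.291) and Ccl4 (-0.14, 0.293) did not pass, and Ccl9 was called without CSH replicate 4 (adjusted p = 0.0414). The 3 conditioned media share the normal arrays as their control. Over all 4 media, KO medium had the highest mean for 5 of the tested ligands, normal medium for 2 (Cxcl16 and Ccl4) and SCR medium with CSH for 1 (Ccl3). No such count was made over all genes. Of the 5, Cxcl2 passed in limma against the next medium in order (adjusted p = 0.0247). Ccl2 (0.0813), Cxcl14 (0.0887), Ccl9 (0.241) and Ccl6 (0.583) did not.

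Neighbouring chemokine genes on a chromosome were called in some cases and not in others, and differences between genes were not tested. Those named here for their position were chosen after their values were seen. Cxcl2 lies at one end of a run of 7 CXC genes on chromosome 5, 145 kb from the first, Cxcl5, and beside Cxcl1, another neutrophil attractant. Cxcl1 was below the array median on all arrays, with group means of 4.46 to 4.51, and Cxcl3, also in the run, had 5.84 to 6.03 and no call. Ccl2 heads a run of 6 CC genes on chromosome 11, of which it and Ccl11 were tested. Ccl11, an eosinophil attractant, differed in SCR medium by 0.09 from 5.91 in normal medium (adjusted p = 0.348).

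The second run on chromosome 11 holds Ccl5, Ccl9, Ccl6, Ccl3 and Ccl4, all tested. From normal to SCR medium their changes were -0.16, -0.02, 1.80, -0.18 and -0.32 in that order, and from SCR to KO medium -0.20, 0.70, 0.74, 0.13 and 0.23. Ccl6 was thus the only one of these 5 to rise in SCR medium, and none of the 5 passed in KO against SCR medium. Ccl5, a T cell attractant, read 6.59 in normal and 6.23 in KO medium. Cxcl9, Cxcl10 and Cxcl11, the interferon-induced run on chromosome 5, were below the median in every array.

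**Figure D3:**
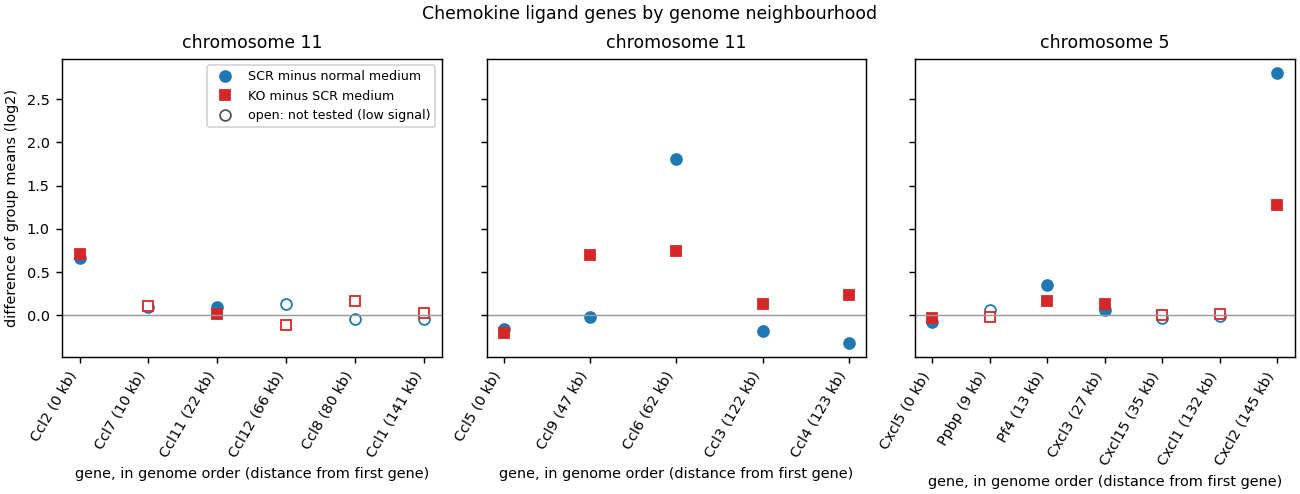
Difference of group means (y axis, log2) for chemokine ligand genes in genome order in 3 runs, for SCR minus normal medium (circles) and KO minus SCR medium (squares). Open symbols are genes below the filter, and distances are from the first gene; Cxcl2, Ccl6 and Ccl2 stand above their neighbours in SCR medium, at 2.81, 1.80 and 0.66.

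Of 28 other chemokine ligands listed, 27 had a name on the array and 11 were tested. From normal to SCR medium 1 rose and 0 fell, with a median of 0.06, beside 19.3% and 15.8% of all genes tested. In KO or CSH medium against SCR medium 0 of 11 passed. Against normal medium, KO medium had 2 higher and 1 lower, beside 21.4% and 17.6% of all genes tested. SCR medium with CSH also had 2 higher and 1 lower against normal medium, beside 20.9% and 14.9%. The 1 riser in SCR medium was Pf4, platelet factor 4, a CXC ligand of platelets and macrophages, from 6.49 to 6.84 (0.35, SE 0.08, adjusted p = 0.00486). In KO against SCR medium the smallest p-values belonged to Cxcl17 (-0.15, adjusted p = 0.855), Ccl5 (-0.20, 0.862) and Pf4 (0.17, 0.878). Ccl26 read 5.90 in normal and 6.05 in SCR medium (adjusted p = 0.357).

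Receptors of the ligands were measured in the same cells. Of 23 chemokine receptors listed, 22 had a name and 10 were tested. In SCR against normal medium 2 rose and 3 fell (median -0.04), beside 19.3% and 15.8% of all genes tested. Ccr1, the receptor of Ccl3, Ccl6 and Ccl9, rose from 6.35 to 9.96 (3.62, SE 0.16, adjusted p = 2.08e-08), and Ccr2, that of Ccl2 and Ccl7, from 6.93 to 7.56 (0.62, SE 0.10, adjusted p = 0.000269). Cx3cr1, the receptor of fractalkine, fell from 12.60 to 10.21 (-2.39, adjusted p = 3.01e-05), and Cxcr4, that of Cxcl12, from 11.34 to 9.54 (-1.79, adjusted p = 0.00011).

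In KO against SCR medium 0 of 10 receptors passed. Ccr1 differed by 0.75 (adjusted p = 0.129), Ccrl2 by -0.25 (0.658) and Ccr10 by -0.18 (0.837). With CSH against SCR medium 0 passed. In KO medium against SCR medium with CSH 1 was higher, Ccr1, by 0.86 (adjusted p = 0.0209), beside 1.21% of all genes tested. Further receptors of the ligands, named after their values were seen, were Cxcr2, Cxcr3 and Cxcr6. Cxcr2, the receptor of Cxcl2, read 5.86 in normal and 5.81 in SCR medium (adjusted p = 0.605), and Cxcr3, that of Cxcl10, fell from 6.48 to 6.02 (adjusted p = 0.0034). Cxcr6, that of Cxcl16, was below the filter, with group means of 4.54 to 4.82.

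Transcription regulators that act on chemokine genes made up a list of 25, of which 21 had a name and 20 were tested. In SCR against normal medium 10 rose and 2 fell, with a median of 0.20, beside 19.3% and 15.8% of all genes tested. Fosl2, an AP-1 subunit, rose from 9.10 to 11.12 (2.02, SE 0.16, adjusted p = 1.16e-06), while Jun, another AP-1 subunit, fell from 10.07 to 8.85 (-1.22, adjusted p = 8.34e-05). Nfkbib, an inhibitor of NF-kB, rose by 1.01 (adjusted p = 2.11e-05) and Nfkbiz, a nuclear partner of NF-kB, by 0.61 (2.67e-05).

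In KO against SCR medium 1 of the 20 rose and 0 fell, beside 0.254% and 0.0166% of all genes tested, and with CSH 0 passed. The 1 was Fosl2, by 1.05 (SE 0.16, adjusted p = 0.0165). Nfkbiz (0.29, adjusted p = 0.21) and Fos (1.15, SE 0.40, adjusted p = 0.595) did not pass. Fos read 7.65, 7.48 and 9.58 in KO medium, with replicate 3 highest, beside 6.83 to 7.33 in SCR medium. Of the regulators tested, Fosl2, Nfkbiz and Fos were the 3 with the smallest p.

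Genes that act on the stability of chemokine mRNAs or on the proteins made up a list of 8, of which 7 were tested. Of these, 3 rose and 2 fell in SCR against normal medium, beside 19.3% and 15.8% of all genes tested. Adam10, the constitutive sheddase of Cxcl16, rose from 12.13 to 12.61 (0.49, adjusted p = 0.000129), and Adam17, the protease inducible by cell activation, fell from 13.65 to 12.82 (-0.83, adjusted p = 2.13e-06). Zfp36l1, which speeds the decay of AU-rich mRNAs, fell by 1.16 on the log2 scale (adjusted p = 3.25e-06), and Zc3h12a, a ribonuclease that cuts chemokine mRNAs, rose by 0.42 (adjusted p = 0.000618). In KO against SCR medium 0 of 7 passed, with Zc3h12a at 0.35 (adjusted p = 0.106), Zfp36 at 0.37 (0.86) and Elavl1, which stabilises AU-rich mRNAs, at 0.11 (0.982). Zfp36 read 6.70, 6.68 and 7.52 in KO medium, with replicate 3 highest, beside 6.46 to 6.68 in SCR medium. With CSH 0 of 7 passed as well.

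Genes whose signals followed a ligand most closely over the 12 arrays were found by the root mean square difference of log2 signals, after the mean of each gene was taken off. They are given for the 4 ligands with the largest range of group means, as a description. For Cxcl2, with a range of 4.08, they were Osbp2 (0.282), which encodes an oxysterol-binding protein, Tgm2 (0.319), a transglutaminase, and Plaur (0.374), the urokinase receptor. Ccl6, with a range of 2.55, had Il1a (0.282), S100a8 (0.298) and Trem1 (0.30), which encode a cytokine, a calcium-binding alarmin and an activating receptor of myeloid cells. Cxcl14 (range 2.34) had Dab2 (0.131), an endocytic adaptor, Sh3bgrl2 (0.168) and Slc25a37 (0.169), an iron importer of mitochondria. The fall of Cxcl16 (range 1.79) was followed by Gas7 (0.0892), P2ry6 (0.0928), a nucleotide receptor, and Prkch (0.098), a protein kinase C.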

How the data were processed

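Total RNA of 12 samples was measured on Affymetrix arrays, 1 array per sample. The deposited values are log2 signals that the authors made with RMA in Affymetrix Expression Console on build mm10, per the submitters' processing notes. Versions, a probe filter and a batch step were not given in the sources used here. RMA puts arrays on 1 scale, so a shift of a cell's total RNA would not show, and dim genes' changes are compressed. The number of arrays limits the precision.

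Of 65528 probe sets, 31018 had 1 gene symbol after symbols were updated through RefSeq (GRCm38.p6), 1478 had more than 1 and 33032 had none listed here. Where a gene had more than 1 probe set (439 genes), that of highest mean was used. The test was limma 3.58.1 (R 4.3.3), in 1 fit of 4 groups with an intensity trend and 8 residual degrees of freedom. Benjamini-Hochberg adjustment ran over 18119 genes, with 0.05 as the threshold, and the scripts were tested on simulated data. Figures used matplotlib 3.10.9 in Python 3.11.15.

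The 10 ligands, the gene lists and the tests were chosen with earlier results of these data known. Of each list, up to 4 tested genes with the smallest p in SCR against normal medium and up to 3 in KO against SCR medium are named, with any called in the latter, and for each of 4 ligands the 3 genes most like it, without Riken clones, predicted genes and small RNAs. Alternatives were other filters, scalings, fits, thresholds, a replicate block and each array left out.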

Additional observations from a re-analysis of the deposited data

How the results depend on the processing

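Of 528 values of single ligands under other filters, scalings and fits at the same threshold, 521 kept their side of it, 3 gained a call and 4 lost one. With 1 array left out, 565 of 576 did, 4 gained a call and 7 lost one. The sign turned in 11 of these 1104 values, none of them called, for Ccl9, Cxcl2, Cxcl16, Ccl3 and Ccl4 in comparisons with small differences. The number of ligands called in KO against SCR medium, 1 as reported, was 0 with no filter on low values, 0 with all probe sets one by one, 0 with the 6 arrays of the comparison alone, 4 with array weights, 3 at adjusted p below 0.1, 0 at adjusted p below 0.01, and 0 to 3 when single arrays were left out. It was 0 without SCR replicate 1, 3 or 4 and 3 without CSH replicate 2. The cause was not tested. Counts in the other 5 comparisons stayed within 1.5 times. Same-numbered samples deviated together (a correlation above 0.1) in 5 of 12 pairs. Their median correlation was 0.069, beside -0.0465 in pairs with other numbers. The labels do not say what the numbers mark, and they were not taken to pair samples. With the replicate block the counts were 6, 1, 0, 6, 5 and 2, the last for KO medium against SCR medium with CSH (3 as reported, Ccl2 lost at adjusted p = 0.0542), and as a random block 3. Over all genes, calls in KO against SCR medium (49) were 376 with array weights, 32 with all probe sets, 22 with 6 arrays, 19 at adjusted p below 0.01 and as few as 20 with 1 array left out. With CSH (0) they were 79 with array weights and 1 each with a stricter filter, a random block and adjusted p below 0.1. In KO medium against SCR medium with CSH (345) they were 210 with no filter, 574 with quantile normalization, 154 with median centring, 654 with array weights, 528 with all probe sets, 214 with the replicate block, 162 with 6 arrays, 631 and 80 at adjusted p below 0.1 and 0.01, and as few as 107 with 1 array left out. Signals below the array median limit Ccl7 and Cxcl10.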
